A study of Rattus norvegicus with 31 samples.

Results

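The 55 genes described here carry symbols of glutathione, thioredoxin and other antioxidant families, and were read in hippocampal CA3 tissue from aged rats. They were taken by symbol from the array annotation. They comprise superoxide dismutases, catalase, the subunits of glutamate-cysteine ligase, glutathione peroxidases and transferases, glutaredoxins and peroxiredoxins. The others include thioredoxins and their reductases, thioredoxin-domain genes, methionine sulfoxide reductases, metallothioneins, heme oxygenase and quinone reductases. Not all of these act through thiols. The thioredoxin-domain genes, Txnl4a and Txnl4b among them, were grouped by name, and an antioxidant role was not tested for any member. The 55 genes were read by 64 probesets, out of 9037 singly named genes and 16204 probesets in the deposited values. Those values leave out the probesets of low signal, so that matching genes read only by such probesets are not among the 55. One probeset per gene, the one with the highest mean over the 31 arrays, was examined first, and all 64 afterwards.

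Mitochondria and oxidases release superoxide, which superoxide dismutases turn into hydrogen peroxide. Catalase, glutathione peroxidases and peroxiredoxins then break down the peroxide. Glutathione and thioredoxin supply electrons to the peroxidases and peroxiredoxins. Glutathione and thioredoxin are recharged from NADPH, in the case of thioredoxin by the thioredoxin reductases. In brain much of the glutathione is held by astrocytes, which feed its precursors to neurons, and CA3 pyramidal cells are excitatory neurons joined by dense recurrent synapses.

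The rats were aged male Long-Evans animals that had been sorted by their performance in a water maze into aged impaired (AI) and aged unimpaired (AU). Later each rat swam to a visible platform either with fixed spatial cues (S) or in a non-spatial control task (NS), and CA3 was dissected shortly afterwards. The groups were AI-S (n = 8), AU-S (n = 8), AI-NS (n = 7) and AU-NS (n = 8), and every rat had its own array. AI-act joined AI-S and AI-NS (n = 15), and AU-act joined AU-S and AU-NS (n = 16). All 31 rats were aged and trained, and young or untrained rats were not analysed here. Values are log2 gcRMA signals, so that a difference of 1 is a doubling, and a level is read only against the same probeset in other rats.

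Array medians lay between 8.97 and 9.14. The 4 measured CA3 markers averaged 11.8 to 12.1 in AI-act and 11.9 to 12.4 in AU-act. The array carries control probesets for the 3′ and the 5′ end of beta-actin and Gapdh, and the mean signal gap between the ends, called the RNA control below, measures RNA integrity or how far reverse transcription reached. The RNA control was 1.59 ± 0.125 in AI-act (SD, n = 15) and 1.45 ± 0.0968 in AU-act (SD, n = 16), which gave p = 0.0005 by a two-sided permutation test. The same gap for hexokinase was 1.79 ± 0.269 in AI-act and 1.41 ± 0.153 in AU-act (permutation p = 2e-05, the smallest the resamples could give). Within each task, too, both gaps had larger means in AI than in AU rats. Fits with either as a covariate are set beside each gene that passed limma's or SAM's test between AI-act and AU-act. Neuronal markers averaged 13.42 to 13.66 in AI-act and 13.62 to 13.70 in AU-act. Of the 6 neuronal markers, 1 passed limma's test (2 by SAM) and was lower in AI-act, namely Syt1 with a difference of -0.28 (limma adjusted p = 0.0139). In all, 5 of the 6 had a negative difference, and 3 (Syt1, Snap25 and Nefl) were lower at an unadjusted p under 0.05. Of the 9 measured astrocyte markers 0 passed it by limma or SAM and 0 had an unadjusted p under 0.05, and their mean level was 12.3 to 12.7 in AI-act and 12.5 to 12.7 in AU-act. Among the markers of oligodendrocytes, microglia, vessels, dentate granule cells, CA1 and CA3, limma and SAM called 0, and 1 oligodendrocyte marker was lower at an unadjusted p under 0.05. In bulk tissue, fewer cells of a type and less RNA per cell cannot be told apart. No fit with either control is given for the markers, and the part of RNA integrity in their differences was not tested.

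The main comparison set AI-act against AU-act, with a call at a limma adjusted p under 0.05 over all 16204 probesets. At the brightest probeset 1 of the 55 genes was lower in AI-act and 0 were higher. Over all singly named genes, 2.36% were called at the brightest probeset, 2.05% as lower and 0.31% as higher. The members' share was near that of all genes. The gene that passed was Sod2, the manganese superoxide dismutase of the mitochondrial matrix. An unadjusted p under 0.05 was reached by 12 of the 55 genes, 7 higher and 5 lower in AI-act, a share of 21.8% beside 19.5% of all probesets. All probesets include unnamed ones and the dimmer ones of each gene. Unadjusted shares at the brightest probeset of every gene were not computed, here or in the comparisons below, so the 2 shares have unlike bases. SAM, the permutation-based test used in the study, called 2 of the 55, Sod2 and Cat, beside 3.83% of all genes.

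Sod2 had a lowest, median and highest signal of 10.87, 11.14 and 11.29 in AI-S, and of 11.10, 11.28 and 11.57 in AU-S. It had 10.84, 11.07 and 11.26 in AI-NS, and 11.06, 11.25 and 11.38 in AU-NS. The ranges overlapped in both tasks, but 14 of 15 AI rats lay below the AU-act mean and 15 of 16 AU rats lay above the AI-act mean. The means were 11.07 ± 0.16 in AI-act and 11.28 ± 0.15 in AU-act (SD), a difference of -0.21 ± 0.05 (SE), or 1.16-fold lower, with a limma adjusted p of 0.0154. The difference was -0.23 ± 0.08 in the spatial task (adjusted p = 0.243) and -0.21 ± 0.08 in the non-spatial task (adjusted p = 0.326), where the threshold was 0.1. Leaving out each of the 31 rats in turn kept the adjusted p between 0.00723 and 0.0300. With the RNA control as a covariate the difference was -0.16 (adjusted p = 0.331), and with the hexokinase control it was -0.13 (adjusted p = 0.712). The part of the neuronal marker levels in this result was not tested.

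Sod2 lies on chromosome 1 at 50043323 to 50050168 on the minus strand of the GRCr8 assembly. Because it was the only gene called at its brightest probeset, the 250 bases before its start are shown, from RefSeq (chr1:50050169-50050418, minus strand). The capitals mark GGGCGG, the core of the GC box read by Sp-family factors, and TGACNNNGC, the core of the antioxidant response element read by Nrf2, both searched on both strands. The TGACNNNGC match is on the opposite strand and lies 27 to 35 bases before the start, and the GGGCGG match lies 218 to 223 bases before it.
Sod2: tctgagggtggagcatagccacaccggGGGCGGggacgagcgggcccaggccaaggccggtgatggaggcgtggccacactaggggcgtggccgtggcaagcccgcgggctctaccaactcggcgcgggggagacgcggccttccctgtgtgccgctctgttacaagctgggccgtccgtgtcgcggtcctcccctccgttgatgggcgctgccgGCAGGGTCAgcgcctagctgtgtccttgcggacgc
Among the 27457 genes with such a window in the RefSeq table, 11% held TGACNNNGC and 33.5% held GGGCGG. Of the 50 members with a window, 11 held TGACNNNGC and 41 held GGGCGG. The members are all genes with signal in these arrays. The shares among the measured genes alone were not computed, so no excess can be read from these counts. A match describes letters only, and the arrays measured no binding.

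**Figure D1:**
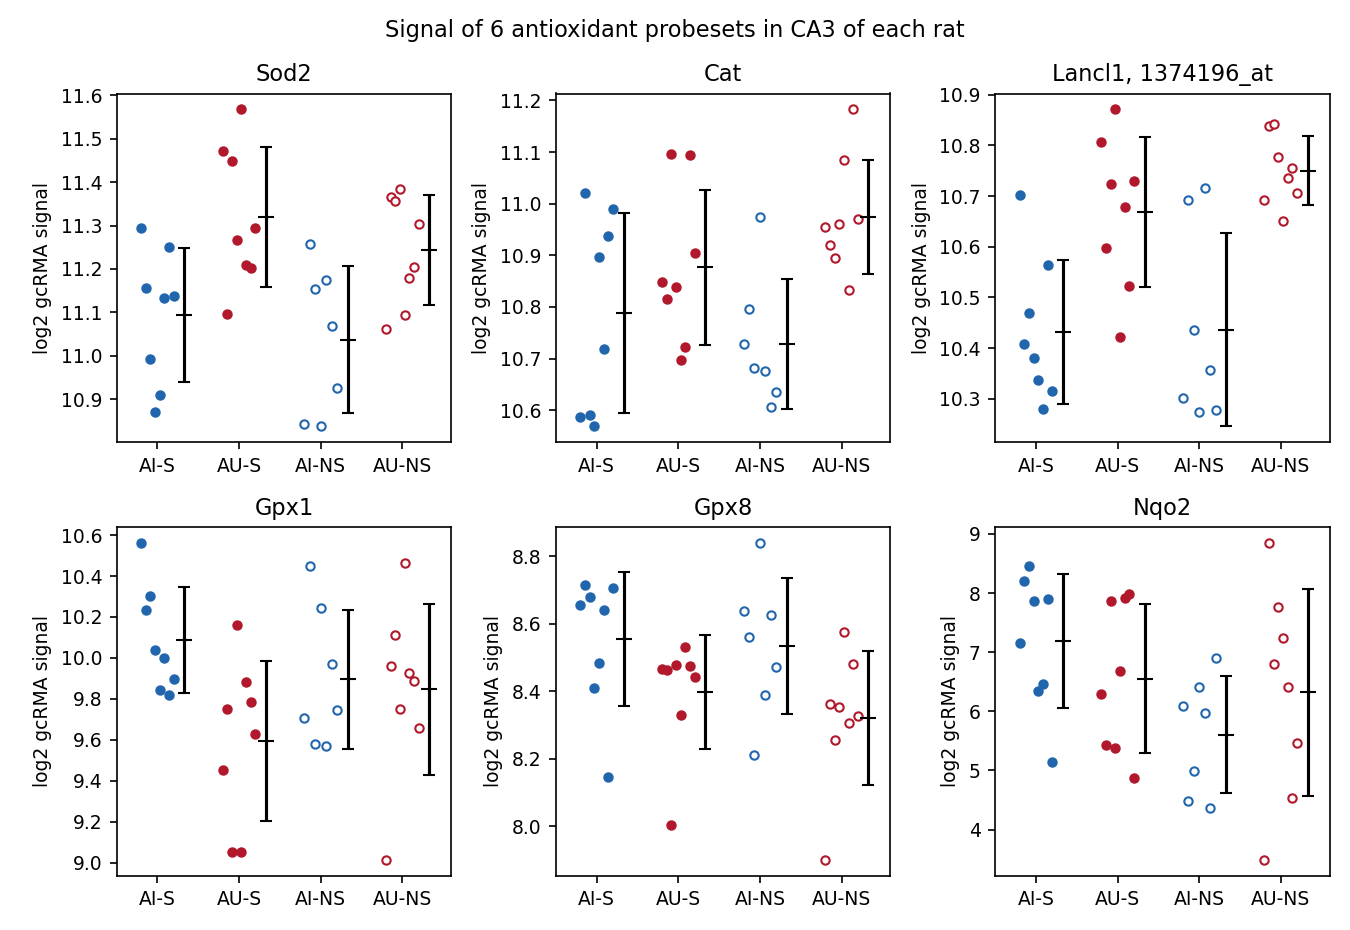
Log2 gcRMA signal (y axis) of 6 probesets in each rat, by group (x axis: AI-S n = 8, AU-S n = 8, AI-NS n = 7, AU-NS n = 8). Points are rats, and the bar beside them is the mean ± SD. Sod2 and the Lancl1 probeset 1374196_at sit lower in AI than in AU rats in both tasks with overlapping ranges, and Nqo2 spans 3.49 to 8.85 over all rats.

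The 3 superoxide dismutases and catalase, Sod2 included, all had a negative AI-act minus AU-act difference, with a median of -0.14 over the 4 genes. The 4 signs were negative too with centred or quantile scaling and with the RNA, hexokinase or dissection covariates. Cat, which encodes catalase, had 10.57, 10.81 and 11.02 in AI-S and 10.70, 10.84 and 11.10 in AU-S (lowest, median and highest). In the non-spatial task it had 10.61, 10.68 and 10.97 in AI-NS and 10.83, 10.96 and 11.18 in AU-NS. The AI-NS rats other than the highest all lay below the lowest AU-NS rat, while the ranges of the spatially trained rats overlapped widely. The pooled difference for Cat was -0.17 ± 0.05 (SE), with a limma adjusted p of 0.0649, and SAM gave an FDR of 0.0435. With the RNA control as a covariate it was -0.12 (adjusted p = 0.453), and with the hexokinase control -0.16 (adjusted p = 0.657). Sod1, the cytosolic copper-zinc enzyme, differed by -0.06 ± 0.06 (adjusted p = 0.682), and Sod3, the secreted form, by -0.11 ± 0.09 (adjusted p = 0.520).

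Glutathione peroxidases, which use glutathione to reduce peroxides, had positive differences in all 4 members measured, with a median of 0.10, and 0 passed the test. The number of positive signs was 3 of 4 with quantile scaling, the RNA control or the dissection covariates, and 2 of 4 with the hexokinase control, where the median was 0.01. Gpx1, the cytosolic and mitochondrial enzyme, had 9.82, 10.02 and 10.56 in AI-S and 9.05, 9.69 and 10.16 in AU-S. In the non-spatial task it had 9.57, 9.75 and 10.45 in AI-NS and 9.01, 9.90 and 10.46 in AU-NS. Thus the AI-S rats lay in the upper part of the AU-S range or above it, while the AI-NS range lay within the wider AU-NS range. The pooled difference of Gpx1 was 0.28 ± 0.13 (SE; limma adjusted p = 0.210). It was 0.49 ± 0.15 in the spatial task (adjusted p = 0.188) and 0.05 in the non-spatial task, and the test of that contrast between tasks gave 0.44 ± 0.25 (adjusted p = 1.00). With the RNA control as a covariate the pooled difference was 0.44 (adjusted p = 0.230). The hexokinase fit of Gpx1 alone is not given here, and in that fit the median of the 4 peroxidases was 0.01. Gpx8, an endoplasmic reticulum peroxidase, differed by 0.19 ± 0.07 (adjusted p = 0.0966), with means of 8.54 ± 0.19 in AI-act and 8.36 ± 0.18 in AU-act (SD). In Gpx8, 13 of 15 AI rats lay above the AU-act mean and 15 of 16 AU rats below the AI-act mean. Gpx4, which reduces lipid peroxides in membranes, differed by 0.02 ± 0.09 (adjusted p = 0.949), and Gpx3, the plasma form, by 0.00 ± 0.11.

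**Figure D2:**
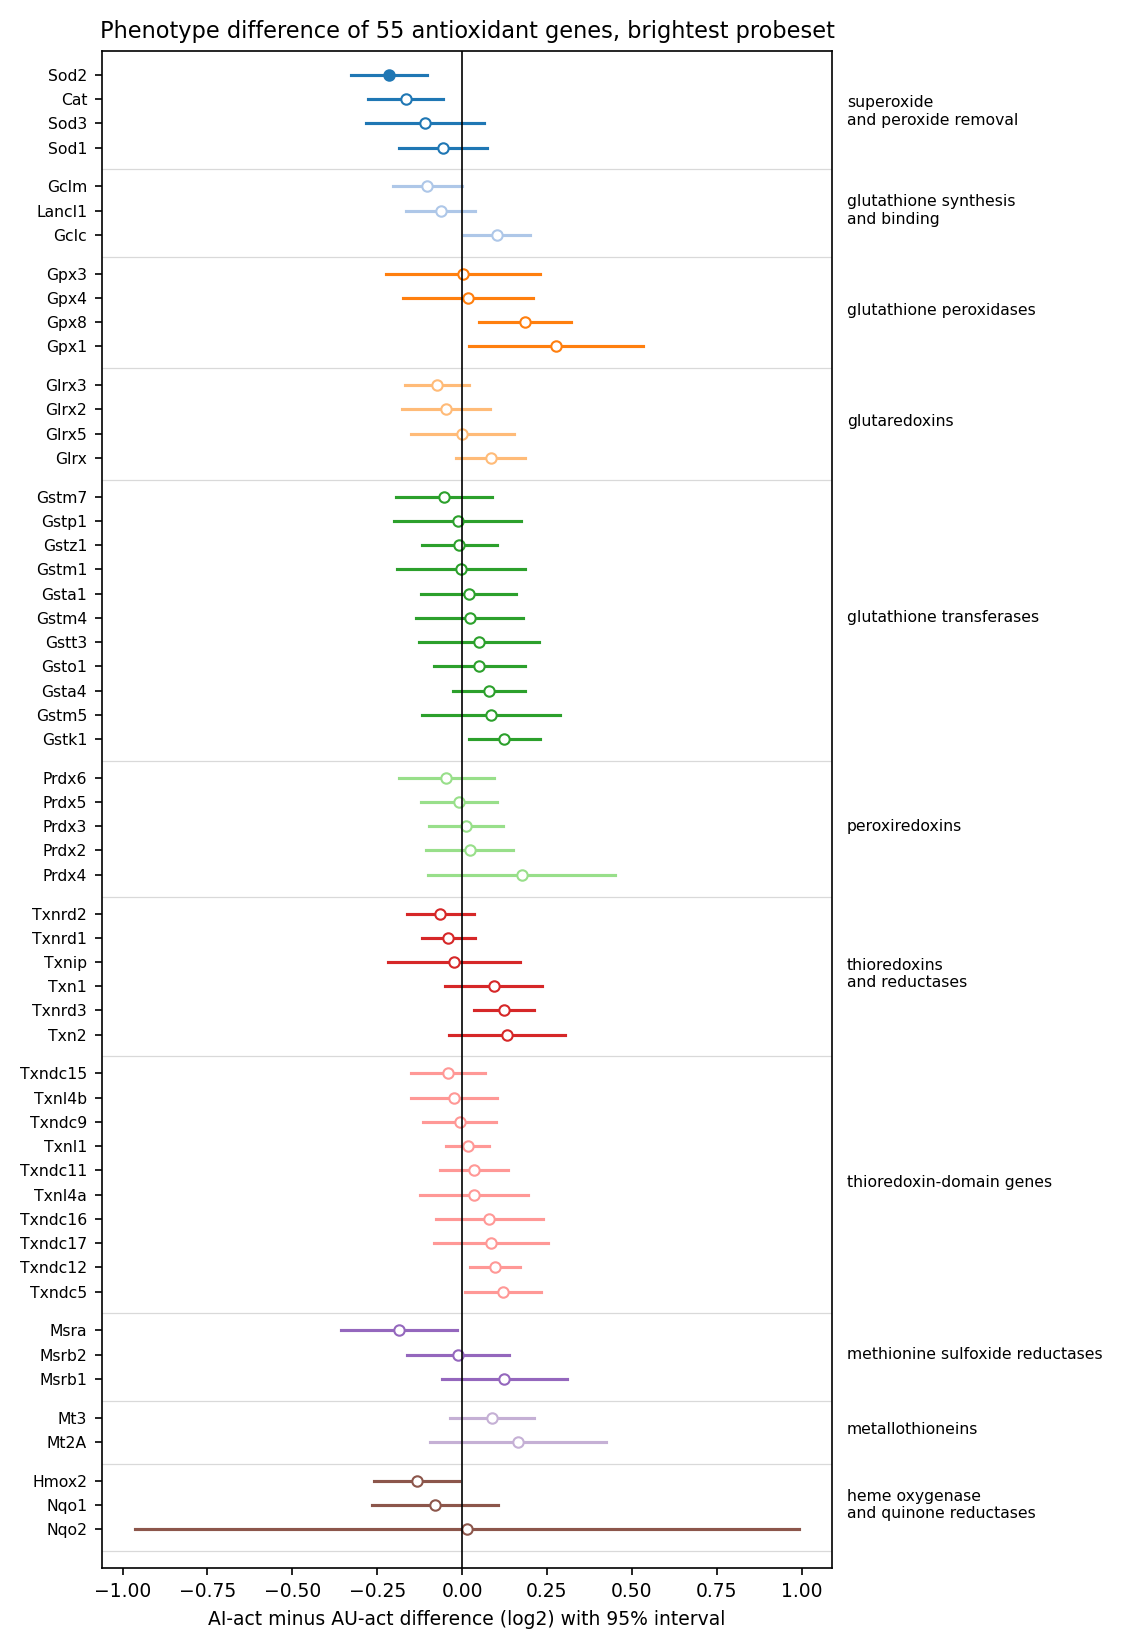
AI-act minus AU-act difference in log2 signal (x axis) at the brightest probeset of each of the 55 genes (y axis), grouped by role, with 95% limma intervals. Sod2 is the only filled point, with an adjusted p under 0.05. All 4 genes of the role labelled superoxide and peroxide removal (the superoxide dismutases and catalase) lie left of 0. The 4 glutathione peroxidases lie right of it, Gpx3 at 0.00, and 2 of the 4 do so with the hexokinase control.

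All 64 probesets were read next. At any probeset 4 of the 55 genes were called lower in AI-act and 0 higher, by 5 probesets of Sod2, Lancl1, Gclc and Txnrd1. Over all singly named genes 6.89% had a probeset called lower and 0.443% one called higher, and among the 2394 genes with several probesets 21.4% did. Of the members, 6 had several probesets, and 3 of these had one called lower. In none of those 3 was it the brightest probeset. The numbers of rats on each side are given for each, since probesets of one gene read different stretches of its transcripts.

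Lancl1, a glutathione-binding protein of the LanC-like family that is abundant in brain, was read by 3 probesets. Probeset 1374196_at had 10.28, 10.39 and 10.70 in AI-S and 10.42, 10.70 and 10.87 in AU-S. In the non-spatial task it had 10.27, 10.36 and 10.72 in AI-NS and 10.65, 10.75 and 10.84 in AU-NS. Here 14 of 15 AI rats lay below the AU-act mean and 15 of 16 AU rats above the AI-act mean, and a few AI rats reached into the AU range. The difference was -0.28 ± 0.05 (SE), or 1.21-fold lower, with a limma adjusted p of 0.0019.

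Lancl1 probeset 1395354_at had 7.00, 7.39 and 7.89 in AI-S and 7.29, 7.87 and 8.24 in AU-S. It had 6.31, 7.37 and 7.95 in AI-NS and 7.85, 7.95 and 8.22 in AU-NS. This was the largest difference of the 64 probesets, -0.56 ± 0.12 (SE), or 1.47-fold lower (limma adjusted p = 0.0059), and 14 of 15 AI rats again lay below the AU-act mean. The brightest Lancl1 probeset, 1371494_at, had a mean of 11.80 ± 0.16 in AI-act and 11.86 ± 0.12 in AU-act (SD), a difference of -0.06 ± 0.05 (adjusted p = 0.529). The 3 probesets thus shared a sign, while the brightest did not pass. The mean of the 3 gave -0.30 ± 0.06 (adjusted p = 0.0067). With the RNA control as a covariate the called probesets gave -0.15 (adjusted p = 0.214) and -0.17 (adjusted p = 0.420), and with the hexokinase control -0.13 (adjusted p = 0.641) and -0.08 (adjusted p = 0.902).

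Gclc, the catalytic subunit of glutamate-cysteine ligase, which sets the rate of glutathione synthesis, was read by 2 probesets that pointed in opposite directions. Probeset 1370688_at averaged 8.62 ± 0.10 in AI-act, against 8.76 ± 0.07 in AU-act (SD), a difference of -0.14 ± 0.03 (SE; limma adjusted p = 0.0130), with 15 of 15 AI rats below the AU-act mean and 16 of 16 AU rats above the AI-act mean. The brightest, 1372523_at, averaged 9.25 ± 0.11 in AI-act, against 9.14 ± 0.14 in AU-act (SD), a difference of 0.10 ± 0.05 (adjusted p = 0.217). No direction can be given to the gene, and the mean of both was -0.02 ± 0.03. With the RNA control as a covariate they gave -0.08 (adjusted p = 0.391) and 0.12 (adjusted p = 0.409), and with the hexokinase control 1370688_at gave -0.10 (adjusted p = 0.648). The modifier subunit, Gclm, had 1 probeset with a difference of -0.10 ± 0.05 (adjusted p = 0.251).

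Txnrd1, the cytosolic thioredoxin reductase, was also read by 2 probesets. Probeset 1386958_at had 8.50, 8.73 and 9.12 in AI-S and 8.89, 9.03 and 9.20 in AU-S. In the non-spatial task it had 8.11, 8.88 and 8.99 in AI-NS and 8.82, 8.96 and 9.36 in AU-NS. All 16 AU rats lay above the AI-act mean, and the highest AI rats reached into the middle of the AU range. The difference was -0.27 ± 0.07 (SE), or 1.21-fold lower (limma adjusted p = 0.0204), and it was -0.10 with the RNA control as a covariate (adjusted p = 0.589) and -0.08 with the hexokinase control (adjusted p = 0.857). The brightest probeset, 1398791_at, differed by -0.04 ± 0.04 (adjusted p = 0.614), and the mean of both by -0.16 ± 0.05 (adjusted p = 0.0536). The 4 called probesets of Lancl1, Gclc and Txnrd1 were called whichever of the 31 rats was left out, with adjusted p up to 0.0393.

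**Figure D3:**
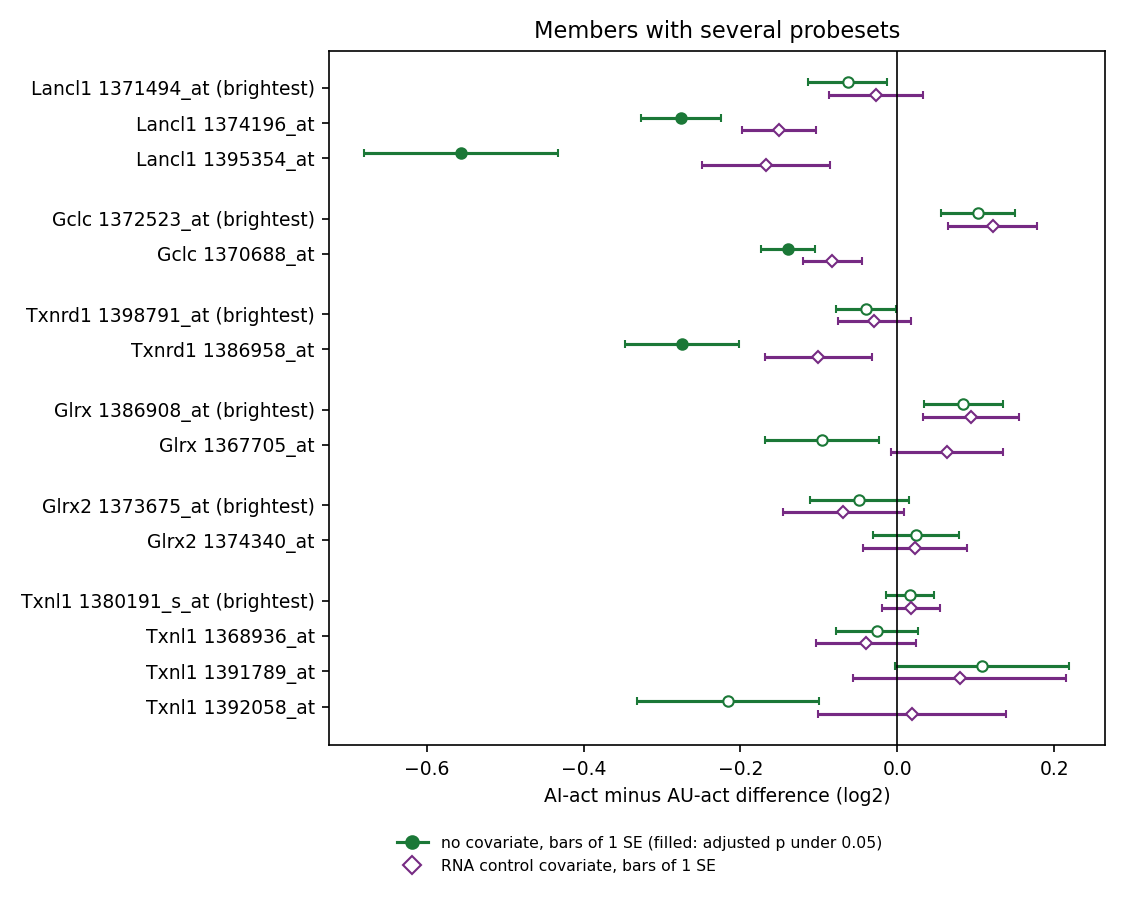
AI-act minus AU-act difference in log2 signal (x axis) for every probeset of the 6 genes with several, brightest first within a gene (y axis), without a covariate (circles) and with the RNA control as a covariate (diamonds). Bars are 1 SE, and filled circles have an adjusted p under 0.05. The called Lancl1, Gclc and Txnrd1 probesets lie nearer to 0 with the covariate, and their brightest probesets move less.

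Thioredoxins, the small dithiol proteins that pass electrons to peroxiredoxins, did not differ past the threshold. Txn1, the cytosolic form, had a mean of 12.74 ± 0.19 in AI-act and 12.64 ± 0.20 in AU-act (SD), a difference of 0.09 ± 0.07 (SE; adjusted p = 0.496). Txn2, the mitochondrial form, differed by 0.13 ± 0.08 (adjusted p = 0.40). Txnrd3, the thioredoxin-glutathione reductase best known from testis, differed by 0.12 ± 0.04 (adjusted p = 0.0904). Among the 10 thioredoxin-domain genes, 7 differences were positive and 3 negative, and 0 were called. The largest of these was 0.12 ± 0.06 (adjusted p = 0.214) in Txndc5, a disulfide isomerase of the endoplasmic reticulum.

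Peroxiredoxins, glutaredoxins and glutathione transferases showed small differences of both signs. Among the 5 peroxiredoxins the differences ran from -0.05 in Prdx6 to 0.18 in Prdx4, the form of the secretory pathway, whose within-group SD was 0.40. Prdx2, abundant in neurons, differed by 0.02 ± 0.06 (SE). Among the 4 glutaredoxins they ran from -0.07 in Glrx3 to 0.08 in Glrx. The 11 glutathione transferases, which join glutathione to electrophiles, had a median of 0.02 and ran from -0.05 in Gstm7 to 0.12 ± 0.05 in Gstk1 (adjusted p = 0.160). The mu-class transferases are close paralogs, and probesets for one may read another. The repair enzymes for oxidized methionine gave -0.19 ± 0.08 for Msra (adjusted p = 0.207), -0.01 for Msrb2 and 0.12 for Msrb1.

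Metallothioneins, cysteine-rich proteins that bind zinc and copper, were positive in both members. Mt3, the form enriched in brain, had a mean of 13.51 ± 0.18 in AI-act and 13.42 ± 0.16 in AU-act (SD; adjusted p = 0.444). Mt2A had 10.47 ± 0.43 in AI-act and 10.30 ± 0.29 in AU-act (SD; adjusted p = 0.509). Hmox2, the constitutive heme oxygenase of neurons, differed by -0.13 ± 0.06 (SE; adjusted p = 0.218), and Nqo1, a quinone reductase induced through Nrf2, by -0.08 ± 0.09 (adjusted p = 0.683). Over all 55 genes, 31 differences were positive and 24 negative, with a median of 0.01, beside a median of -0.01 over all probesets. The majority turned with covariates, to 26 positive and 29 negative with the dissection covariates and to 23 positive and 32 negative with the hexokinase control. The 95% interval of the difference lay within ±0.3 in 46 of the 55 genes and within ±0.5 in 53.

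Members with the highest signals within their roles were also read in each group, together with Txndc16, which was named for an extreme difference. Sod1 averaged 11.35 ± 0.19 in AI-S and 11.41 ± 0.15 in AU-S, and 11.19 ± 0.17 in AI-NS and 11.26 ± 0.14 in AU-NS (SD here and in the rest of the paragraph). Gpx4 averaged 12.47 ± 0.28 in AI-S and 12.36 ± 0.24 in AU-S, and 12.31 ± 0.30 in AI-NS and 12.40 ± 0.29 in AU-NS. Both lay within 1 SD of each other between phenotypes in either task. Of the peroxiredoxins, Prdx2 averaged 12.08 ± 0.18 in AI-S and 11.98 ± 0.16 in AU-S, and 11.97 ± 0.18 in AI-NS and 12.03 ± 0.20 in AU-NS. Prdx6, a peroxidase that also has phospholipase activity, averaged 11.65 ± 0.26 in AI-S and 11.62 ± 0.13 in AU-S, and 11.54 ± 0.24 in AI-NS and 11.67 ± 0.13 in AU-NS. The sign of both differed between the tasks, by less than the spread. Of the transferases, Gsta1, an alpha-class enzyme, averaged 12.47 ± 0.13 in AI-S and 12.45 ± 0.18 in AU-S, and 12.41 ± 0.26 in AI-NS and 12.39 ± 0.21 in AU-NS. The pi-class enzyme Gstp1 averaged 11.48 ± 0.20 in AI-S and 11.46 ± 0.26 in AU-S, and 11.41 ± 0.33 in AI-NS and 11.46 ± 0.29 in AU-NS. Neither separated the phenotypes. Of the glutaredoxins, Glrx2, the mitochondrial form, averaged 11.24 ± 0.14 in AI-S and 11.30 ± 0.22 in AU-S, and 11.11 ± 0.12 in AI-NS and 11.15 ± 0.18 in AU-NS. Glrx3, which takes part in iron-sulfur cluster handling, averaged 12.21 ± 0.11 in AI-S and 12.30 ± 0.13 in AU-S, and 12.12 ± 0.10 in AI-NS and 12.19 ± 0.13 in AU-NS. Both had larger means in the S than in the NS groups of either phenotype, with limma adjusted p between 0.685 and 0.862 in the task comparisons. Txnl1, a thioredoxin-like protein tied to the proteasome, averaged 12.97 ± 0.07 in AI-S and 12.98 ± 0.06 in AU-S, and 13.02 ± 0.10 in AI-NS and 12.98 ± 0.07 in AU-NS, and had the smallest within-group SD of the 55 genes (0.0753). Txndc15 averaged 10.56 ± 0.09 in AI-S and 10.62 ± 0.24 in AU-S, and 10.49 ± 0.09 in AI-NS and 10.52 ± 0.09 in AU-NS. Txndc16 averaged 9.23 ± 0.22 in AI-S and 9.27 ± 0.17 in AU-S, and 9.38 ± 0.23 in AI-NS and 9.17 ± 0.25 in AU-NS. Both of these carry a thioredoxin domain, and Txndc16 had the most negative test of the phenotype difference between tasks, -0.25 ± 0.15 (SE; adjusted p = 1.00).

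Genes upstream of these enzymes were read from 4 pathway lists, and limma called 0 genes in either direction in any of them between AI-act and AU-act. SAM called 0 as well. An unadjusted p under 0.05 was reached by 1 gene higher and 1 lower in AI-act among transport and breakdown genes, 2 lower among sensors and repair genes, 1 lower in selenoprotein supply and 0 in NADPH supply. NADPH supply had 7 of 8 genes measured and a median AI-act minus AU-act difference of -0.01. Cysteine and glutathione transport and breakdown had 10 of 11 measured and a median of -0.01. Oxidant sensors and repair, which include Nfe2l2 and Keap1, had 9 of 12 measured and a median of 0.01. Selenoprotein supply, needed by glutathione peroxidases and thioredoxin reductases, had 7 of 10 measured and a median of -0.01.

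Split by task, the phenotype comparisons called no member at its brightest probeset, and limma called 0 of the 64 probesets. In the spatial task, AI-S against AU-S, 0 of 55 genes passed at an adjusted p under 0.1, beside 0.413% of all probesets and 0.0885% of genes at the brightest probeset. In this comparison 6 genes had an unadjusted p under 0.05 by limma, 4 higher and 2 lower in AI-S, a share of 10.9% beside 12.3% of all probesets, and SAM called 0 beside 0.564% of all genes. The smallest adjusted p was that of Gpx1 (0.188). Gstk1, a mitochondrial and peroxisomal transferase, had means that differed by 0.17 ± 0.05 (SE; adjusted p = 0.20). Msrb1, the selenium-containing methionine sulfoxide reductase, had 9.24, 9.90 and 10.28 in AI-S and 9.41, 9.64 and 9.77 in AU-S. All AI-S rats but the lowest lay above the AU-S range, and that rat lay below it. The difference was 0.25 ± 0.10 (SE; adjusted p = 0.342), and without AI-S rat 5 it was 0.34 (adjusted p = 0.0933), which is past the threshold. The fit without this rat held no control as a covariate. The RNA control averaged 1.59 in AI-S and 1.48 in AU-S (two-sided exact permutation p = 0.0502). The hexokinase control averaged 1.81 in AI-S and 1.42 in AU-S (two-sided exact permutation p = 0.000777). The 2 measured dentate granule markers were both higher in AI-S than in AU-S at an unadjusted limma p under 0.05. Their median difference was 0.45, and 0 were called. With the dentate and CA1 marker levels as covariates 0 of the 55 genes were called, and 38 differences were positive, beside 36 without.

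In the non-spatial task, AI-NS against AU-NS, 0 of 55 genes passed, beside 0% of all probesets. Here 5 genes had an unadjusted p under 0.05 by limma, 2 higher and 3 lower in AI-NS, a share of 9.09% beside 11.5% of all probesets, and SAM called 0 at the brightest probeset beside 0.255% of all genes. At another probeset SAM called Lancl1 lower (1374196_at, difference -0.31, FDR 0.0969). The lower ones were Cat, at -0.25 ± 0.06 (SE; adjusted p = 0.183), Hmox2 and Sod2. Hmox2 had 8.58, 9.06 and 9.39 in AI-NS and 9.09, 9.31 and 9.49 in AU-NS, a difference of -0.27 ± 0.10 (adjusted p = 0.292). In the spatial task its difference was -0.01, with 9.11, 9.21 and 9.39 in AI-S and 8.93, 9.27 and 9.39 in AU-S. The AI-NS rats thus reached lower than any other group for this gene, through rats AI-NS 1 (8.88) and AI-NS 8 (8.58). The test of the difference between tasks gave 0.27 ± 0.12 (SE; limma adjusted p = 1.00). It was the only one of the 55 genes with an unadjusted p under 0.05 in that test, a share of 1.82% beside 2.44% of all probesets, and 0 genes were called beside 0% of all probesets.

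**Figure D4:**
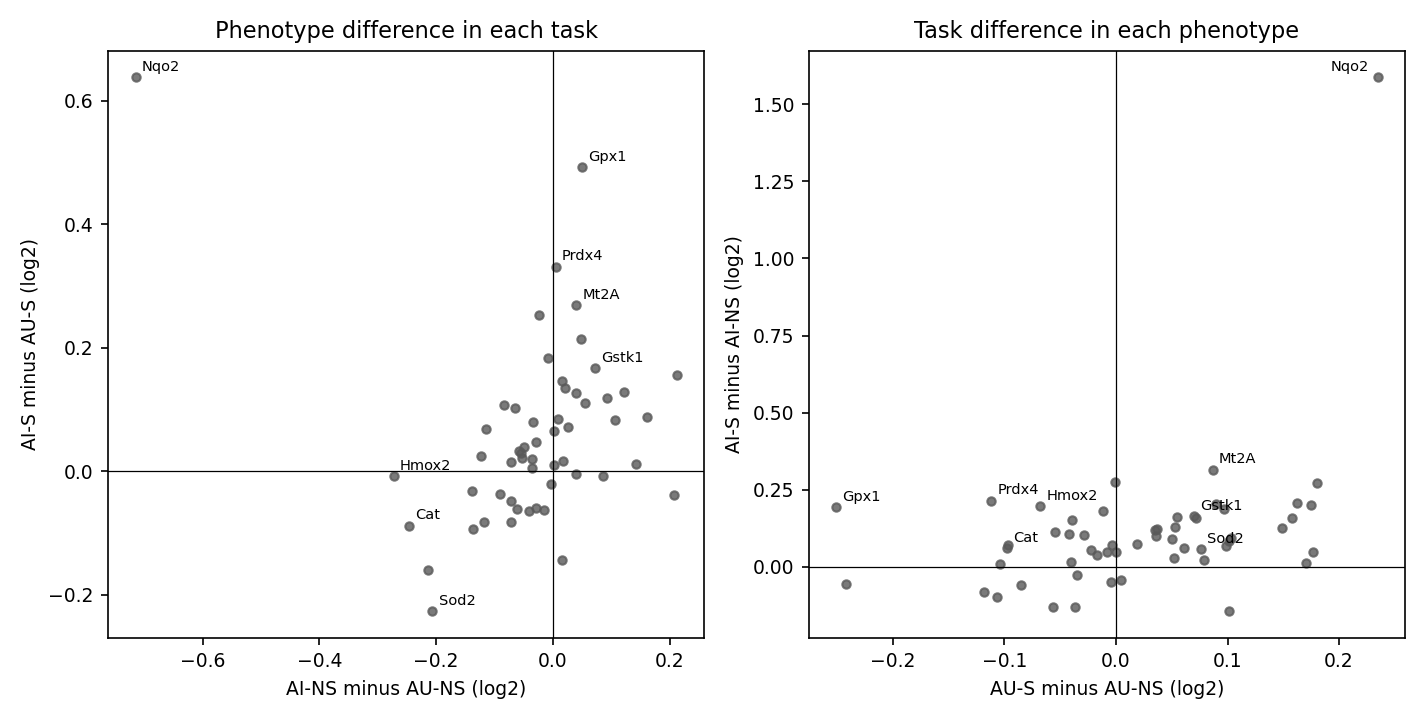
Log2 differences of the 55 genes at their brightest probesets. Left, AI-S minus AU-S (y axis) against AI-NS minus AU-NS (x axis). Right, AI-S minus AI-NS (y axis) against AU-S minus AU-NS (x axis). Each point is a gene. In the right panel 45 of 55 genes lie above 0 on the y axis and 29 lie right of 0 on the x axis, and no point passed a threshold in either panel.

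The training task was compared within each phenotype. AI-S against AI-NS called 0 of 55 genes, beside 0% of all probesets, with SAM calling 0. At an unadjusted p under 0.05 limma had 5 genes higher and 0 lower, a share of 9.09% beside 4.09% of all probesets. The signs leaned one way in this comparison. Of the 55 differences, 45 were positive, including all 11 glutathione transferases and all 5 peroxiredoxins, and the median was 0.08. Over all probesets, which include unnamed ones and the dimmer ones of each gene, 47.3% were positive and the median was -0.01. The signs at the brightest probeset of every gene were not counted, so the lean cannot be called particular to the members. The smallest adjusted p among the members was 0.862. The dentate granule markers Prox1 and Calb1 moved with it, with a mean level of 9.95 ± 0.35 in AI-S and 9.46 ± 0.37 in AI-NS (SD), and the 5 measured microglial markers averaged 9.19 ± 0.32 in AI-S and 8.95 ± 0.39 in AI-NS (SD). With the dentate and CA1 marker levels as covariates, 44 of 55 differences were positive with a median of 0.08, among them 9 of the 11 transferases and all 5 peroxiredoxins. The part of microglia was not tested. The RNA control had like means in AI-S and AI-NS, with a difference of -0.00307 (two-sided exact permutation p = 0.956). With it as a covariate 45 of 55 differences were positive. Array AI-NS 8 had the highest RNA control of all arrays (1.92). Rats AI-NS 1 and 8 were the lowest of their group for Gstm1 (10.74 and 10.62), Gstm5 (10.58 and 10.38) and Hmox2 (8.88 and 8.58). This did not hold for every member, and for Txndc5 AI-NS 8 was the highest of its group (9.83). The signs without these rats were not tested.

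Nqo2, a quinone reductase that uses dihydronicotinamide riboside, was the most variable member. It had 5.14, 7.52 and 8.45 in AI-S and 4.87, 6.49 and 7.98 in AU-S. It had 4.37, 5.98 and 6.91 in AI-NS and 3.49, 6.60 and 8.85 in AU-NS. All 4 groups overlapped, and AU-NS held both the lowest and the highest rat. The difference between AI-S and AI-NS was 1.59 ± 0.50 (SE), 3.01-fold, with an unadjusted limma p of 0.0059 and an adjusted p of 0.862. Its within-group SD was 1.33, while the median was 0.18 for the members and 0.18 for all probesets. Only Nqo2, Prdx4, Mt2A, Gpx1 and Gpx3, 5 of the 55, had a within-group SD above 0.3.

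AU-S against AU-NS called 0 of 55 genes, beside 0% of all probesets, with SAM calling 0. At an unadjusted p under 0.05 limma had 3 genes higher and 2 lower, a share of 9.09% beside 8.12% of all probesets. The differences were 29 positive and 26 negative, with a median of 0.02. Gsta4, the transferase for the lipid aldehyde hydroxynonenal, had the smallest p, with a difference of 0.18 ± 0.06 (SE; limma adjusted p = 0.605). Txnip, the thioredoxin inhibitor that responds to glucose, differed by -0.24 ± 0.09 (adjusted p = 0.605), and Txnrd2, the mitochondrial thioredoxin reductase, by 0.17 ± 0.06 (adjusted p = 0.605). The 95% interval lay within ±0.5 in 52 of the 55 genes in this comparison and in 50 in AI-S against AI-NS.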

How the data were processed

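CA3 RNA of each rat was hybridized to an Affymetrix Rat Genome array. The authors normalized the arrays with gcRMA (version not given in the sources used here) and deposited log2 values, with probesets of low signal and 1 AI-NS array removed by them according to the methods. The lowest mean of a deposited probeset was 5.00, so that a limit of 4 on the mean removed none. Group and replicate came from sample titles. The study's behavioral runs and hybridization batches are not in the labels and were not tested. Probesets were named from the platform annotation, in which 12242 probesets had 1 symbol, 293 several and 3669 none. The probesets for Prdx1 with Prdx1l1 and for Mt1 with other symbols were left out as ambiguous. The members and lists were chosen with earlier results of these data known.

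Differences were fitted with limma 3.58.1 in R 4.3.3 (lmFit and eBayes), and two-sided p-values were adjusted over the 16204 probesets by the Benjamini-Hochberg method. Calls used an adjusted p under 0.05 for AI-act minus AU-act and under 0.1 elsewhere, after the study's FDR levels. Named with values were members called at any probeset, the 2 with the highest mean per role and the extremes of each comparison. Others, among them Cat, were added after their values were seen. SAM used 100 permutations. On simulated data of the AI-act and AU-act groups with 200 of 16204 probesets changed, limma recovered 60% of 1.2-fold and 96% of 1.5-fold changes. For AI-S and AU-S it recovered 24.5% and 88.5%. Alternatives were other filters, priors, scalings and array weights, the RNA control, hexokinase and dissection covariates, a task term, a replicate block, SAM, other probeset rules and leaving out each rat.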

Additional observations from a re-analysis of the deposited data

Results flagged for a closer look

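Among 116 group-by-probeset sets of values of the named genes, 11 held a rat that stood apart from the rest of its group by Dixon's criterion, which chance alone does in about 1 in 20 groups. Rat AI-S 5 was low for Glrx2 (10.94) and for Msrb1 (9.24), the gene whose spatial comparison passed the threshold without this rat. Rat AU-NS 1 was low for Msrb2 (8.50), Nqo1 (6.84) and Prdx2 (11.61). Rat AI-NS 3 was high for Prdx2 (12.33) and Txn1 (13.04). Rat AU-S 3 was low for Gpx8 (8.00), and rat AU-S 1 was low for Gstp1 (10.88), the pi-class glutathione transferase. Rat AI-S 1 was high for the brightest Lancl1 probeset (12.15), and rat AI-S 2 was high for Mt2A (11.79).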

How the results depend on the processing

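The count of 1 member called in AI-act minus AU-act became 3 with array weights (Sod2, Cat and Gpx8), 2 by SAM (Sod2 and Cat), 2 with the mean of all probesets of a gene (Sod2 and Lancl1) and 4 at any probeset. The count was 0 with the RNA control as a covariate and 0 with the hexokinase control. With the RNA control 1 of all 16204 probesets was called, so the loss of calls was not particular to the members. Leaving out 1 rat at a time gave 1 to 4. It gave 2 without AI-NS rat 4 or 5, AI-S rat 2 or 8, or AU-S rat 5 or 6, and 4 without AI-S rat 7, when Cat, Gpx8 and Txnrd3 passed beside Sod2. The count of 4 at any probeset was 0 with either covariate and 4 to 7 when 1 rat was left out, with 7 without AI-S rat 7. At the brightest probeset the count in AI-S minus AU-S was 0 to 1 when 1 rat was left out, with 1 without AI-S rat 5, and the other comparisons gave 0 members under every setting run. At other probesets, AI-S minus AU-S had Txnrd1 1386958_at called lower with array weights (adjusted p = 0.0545), without AI-S rat 1 (0.0510) and without AI-S rat 7 (0.0766). Both Lancl1 probesets were called lower there with array weights (0.0699 and 0.0702), and 1374196_at without AI-S rat 1 (0.0757). In AI-NS minus AU-NS, Lancl1 1374196_at was called lower by SAM (0.0969), and it and 1395354_at in the fit of all 4 groups (0.0744 and 0.0968) and without AI-NS rat 3 (0.0677 and 0.0835). Most rats with the same number did not pair, since at most 2 pairs per comparison had deviations that correlated above 0.1. Between AI-NS and AU-NS, however, numbers 1 and 5 each correlated at 0.31, the best match of the AI-NS rat. The same held for number 3 between AI-S and AI-NS, at 0.145. With the replicate number as a block the count at any probeset was 2, as Gclc (adjusted p = 0.0895) and Txnrd1 (adjusted p = 0.0988) were not called, and the count at the brightest probeset stayed 1. No difference of a called probeset changed sign under the settings run. Centring or quantile scaling moved the median of all probesets by under 0.1, and the number of positive members in AI-act minus AU-act was 31 as deposited, 36 centred, 34 quantile normalized, 37 with the RNA control, 26 with the dissection covariates (median -0.01) and 23 with the hexokinase control (median -0.03). The deposited values hold no background measure, so that it is not known which members were above background on which arrays.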
